A study of Mus musculus with 9 samples.

Results

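The treatment of mouse melanoma with an antibody against B7-H3 was compared with a control IgG in bulk RNA-seq of tumour immune cells. The comparison took 6 libraries of the 9 in the study, chosen by their titles: 3 labelled anti-B7-H3 and 3 labelled IgG_Control. In all groups, C57BL/6J mice carried subcutaneous allografts of YUMM 2.1, a cultured mouse melanoma line, were treated once the tumours measured 20 to 50 mm3, and gave cells that were sorted for CD45, the surface marker of leukocytes. The IgG control mice received an isotype control, the anti-B7-H3 mice an antibody to B7-H3, and the 3 remaining libraries came from mice given anti-PD1. The labels give no age or sex. They do not tell whether a group's replicates came from different mice, and the p-values therefore measure the spread between samples, which may be technical. The mice are described as immunocompetent, and an arm that combined both antibodies was not analysed here.

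B7-H3, encoded by Cd276, is a membrane protein of the B7 family, whose members bind receptors on T cells and either support or restrain them. It is found on many tumour cells and on myeloid antigen-presenting cells, and its own receptor is not settled. A leukocyte sort of a tumour holds T cells, NK cells, B cells, dendritic cells, monocytes, macrophages and granulocytes together.

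The 6 libraries held between 14487012 and 31533106 estimated counts, so that 3 counts corresponded to between 0.0951 and 0.207 CPM (counts scaled to a common library size, corrected for library composition). Ptprc, which encodes CD45, stood at 2913, 2169 and 1871 CPM in the controls and at 1718, 1854 and 2348 with anti-B7-H3, and did not differ past the test (log2 fold change -0.23 ± 0.23 SE, edgeR adjusted p = 0.866). Markers of cells that the sort should remove were low but not all even. Melanocyte and melanoma markers summed to at most 19.9 CPM. Fibroblast markers summed to between 55.4 and 82.7 CPM in the controls and 92.5 and 98 CPM with anti-B7-H3, at a median log2 fold change of 3.05, and endothelial markers to 92.8, 84.4 and 79.6 CPM against 141, 118 and 128. Both sums lay above every control, with 0 genes past the test. The most abundant member of the fibroblast list with anti-B7-H3 was Thy1, which is also on the pan-T cell list. That of the endothelial list was Pecam1. Whether cells other than leukocytes supplied these sums was not tested, nor was their part in the results. Erythroid and platelet markers ranged from 8.91 CPM in IgG control 2 to 448 CPM in IgG control 3. IgG control 2 stood apart: it lay at 192 on the first principal component against -54.9 to 31.1 for the other 8 libraries, and 1893 tested genes had 0 counts in it. Genes whose call turns on that library are named below with their p-values without it.

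Of 13174 tested genes, 112 (0.850%) passed edgeR's quasi-likelihood test at an adjusted p of 0.05. With anti-B7-H3, 109 (0.827%) were higher and 3 (0.0228%) were lower. Each of the 109 was above every control library in all 3 anti-B7-H3 libraries, an order that 9.96% of all tested genes had. Each of the 3 was below every control library, as were 5.50% of all tested genes. Over all tested genes, 52.0% had a positive fold change, the share to set beside the counts of positive list members below. The risen genes lay at log2 fold changes from 0.93 to 10.79 with a median of 2.38, against a median of 0.02 over all tested genes. At least a 4-fold rise was fitted for 72 of them. In such a bulk sample, fewer cells of a type and less RNA per cell cannot be told apart, nor can more cells and more RNA per cell. Among these 109 genes, anti-B7-H3 1 was the highest of its group for 69 and IgG control 2 the lowest of its group for 59.

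**Figure D1:**
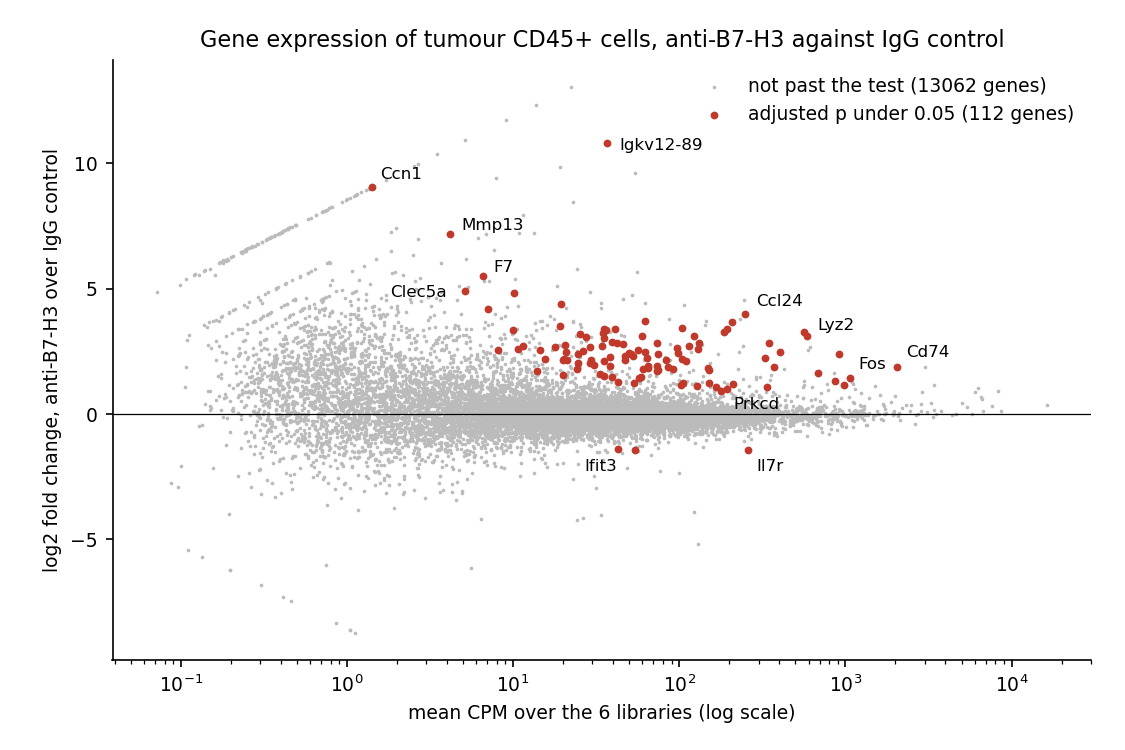
Log2 fold change of each of the 13174 tested genes, anti-B7-H3 over IgG control, against its mean CPM over the 6 libraries on a log axis; red points are the 112 genes with an edgeR adjusted p under 0.05 and grey points all others. All but 3 of the red points lie above 0, and the straight streaks at the left are genes with few counts in the controls.

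Stretches upstream of the RefSeq gene start are shown for 4 genes that stand for the directions seen: the fallen interferon-stimulated genes Ifit1 and Ifit3, the risen lysozyme gene Lyz2 and the risen chemokine gene Cxcl2. They read 5′ to 3′ on the gene's strand, from GRCm38.p6, and end before the annotated gene body. Capitals mark matches, on either strand, to a form of the interferon response element, in Ifit1 (chr19:34640639-34640870, plus strand) and Ifit3 (chr19:34583279-34583528, plus strand). In Lyz2 (chr10:117282322-117282522, minus strand) they mark AGGAAGT, a core bound by the ETS factor PU.1, and in Cxcl2 (chr5:90903649-90903870, plus strand) an NF-kB form.
Ifit1: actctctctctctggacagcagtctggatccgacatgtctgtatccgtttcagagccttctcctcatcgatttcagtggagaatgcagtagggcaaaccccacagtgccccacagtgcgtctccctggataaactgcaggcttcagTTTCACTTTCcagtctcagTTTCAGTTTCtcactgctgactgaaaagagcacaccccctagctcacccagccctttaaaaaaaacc
Ifit3: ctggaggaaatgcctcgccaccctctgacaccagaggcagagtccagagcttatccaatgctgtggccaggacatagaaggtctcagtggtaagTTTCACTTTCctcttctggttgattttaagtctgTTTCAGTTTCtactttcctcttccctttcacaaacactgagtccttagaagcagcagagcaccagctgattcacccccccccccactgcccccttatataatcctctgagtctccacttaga
Lyz2: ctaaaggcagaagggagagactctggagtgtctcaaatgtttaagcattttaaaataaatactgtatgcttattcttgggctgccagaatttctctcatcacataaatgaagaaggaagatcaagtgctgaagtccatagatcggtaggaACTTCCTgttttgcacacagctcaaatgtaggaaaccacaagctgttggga
Cxcl2: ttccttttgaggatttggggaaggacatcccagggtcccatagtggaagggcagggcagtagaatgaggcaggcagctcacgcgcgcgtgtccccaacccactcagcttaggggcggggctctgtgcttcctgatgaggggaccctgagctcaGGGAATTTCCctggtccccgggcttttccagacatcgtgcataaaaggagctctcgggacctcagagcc

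The interferon form occurred at positions -104 and -85 of Ifit1 and at -156 and -122 of Ifit3, counted from the RefSeq start. In Lyz2 the ETS core began at -100, and in Cxcl2 the NF-kB form at -97. In windows of 250 bases, 2 of the 3 fallen genes and 8 of 85 risen genes with a RefSeq promoter (9.4%) held the interferon form, against 3.5% of 10090 tested genes. AGGAAGT was present in 20 of the 85 (23.5%), among them C1qb, C1qc, C5ar1, Pirb, Lyz2, Mmp12 and Mrc1, against 9.3% of tested genes. The longer GAGGAAGT, which contains it, was present in 9.4% against 3.2%. The AP-1 form TGANTCA was in 10.6% against 5.5%, the C/EBP form TTGCNNAA in 14.1% against 9.3% and the NF-kB form in 4.7% against 1.4%. The E-box CACGTG ran the other way, at 4.7% against 9.7%. Over all 32851 windows of that length, AGGAAGT was present in 7.7% and CACGTG in 6.0%. These matches are letters in a window and say nothing of binding.

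The antibody's own target and its family had 0 genes past the test. Cd276 itself stood at 0.852, 0 and 0 CPM in the controls and at 1.19, 2.83 and 2.62 CPM with anti-B7-H3. The groups did not overlap, but the difference of 2.93 ± 2.02 did not pass (edgeR adjusted p = 0.777). Among 14 tested genes of the B7 family and their partners, 0 passed, at a median of 0.08, and DESeq2 called 1 higher. Pdcd1lg2, the gene of PD-L2, stood at 3.96, 3.90 and 3.89 CPM against 11.5, 9.19 and 10.1, above every control library but not past the test (1.39 ± 0.38, edgeR adjusted p = 0.214). Cd86, a ligand of CD28 and CTLA4 on antigen-presenting cells, was also above every control, at 16.8, 8.17 and 11 CPM against 20.1, 19.4 and 17.1 (0.65 ± 0.36, edgeR adjusted p = 0.688). Cd274, encoding PD-L1, overlapped between the groups, at 23.7, 9.10 and 19.6 CPM against 20.3, 30.3 and 40.4.

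Receptors for the Fc part of IgG, through which phagocytes read antibody, rose in part, with Fcgr2b the firmest of them. Fcgr2b, the inhibitory Fc receptor, stood at 26.9, 16.7 and 31.3 CPM in the controls and at 259, 193 and 206 with anti-B7-H3. The lowest treated library was thus well above the highest control, with a change of 3.13 ± 0.27 (edgeR adjusted p = 0.00104). Fcgr3, an activating Fc receptor, went from 44.8, 11.3 and 55.0 CPM to 244, 213 and 209 (2.58 ± 0.47, edgeR adjusted p = 0.0346). With Fcrlb, an intracellular Fc receptor-like protein (4.20 ± 0.78), 3 of 12 tested genes of the list rose and 0 fell, at a median of 2.16. The call of Fcgr2b held without each library in turn, that of Fcrlb in 2 of 9 such fits and that of Fcgr3 in 1. The list's count was accordingly 1 without any 1 of the anti-B7-H3 libraries, IgG control 1, anti-PD1 1 or anti-PD1 2, and 5 without IgG control 2. Their summed level was 701, 369.7 and 664 CPM in the controls and 1263, 1312 and 1231 CPM with anti-B7-H3. Fcrlb, Fcgr2b and Fcgr3 lie together at chr1:170907273-171064935. Near-identical stretches of Fcgr2b and Fcgr3 could have been split between them by the estimated counting.

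The form of Fcgr2b was read from its transcripts. The transcript with a coding length of 882 bases took 75.9%, 90.1% and 73.4% of the gene's estimated counts in the controls and 84.9%, 82.4% and 85.6% with anti-B7-H3, which overlap. The form of 1023 bases took 18.7% ± 8.4 (SD, n = 3) and 12.5% ± 1.7. For Sirpa, the phagocyte receptor of CD47 that rose by 3.06 ± 0.44, the shares did separate. Its transcript of 1530 coding bases took 95%, 92.7% and 90.9% in the controls and 70.7%, 72.4% and 48.8% with anti-B7-H3, and a form of 876 bases took 0.0%, 7.3% and 0.0% against 16.2%, 12.3% and 24.2%. The control shares rest on 119, 51.0 and 141 estimated counts of the main form, and with 3 libraries in each group an exact permutation test cannot give a p below 0.1.

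Paired receptors of myeloid cells and the kinases and adaptors behind them moved in the same direction. Pirb, an inhibitory receptor for MHC class I, stood at 21.4, 22.4 and 12.5 CPM in the controls and at 103, 108 and 106 with anti-B7-H3 (2.49 ± 0.26, edgeR adjusted p = 0.00234). Pilra, an inhibitory receptor of the PILR family, went from 6.32, 11.5 and 5.71 CPM to 54.6, 31.4 and 38.9 (2.41 ± 0.37). Cd300lf, an inhibitory lipid receptor, rose by 1.55 ± 0.28, and its neighbour Cd300c2 by 2.70 ± 0.43. In the list of the CD47 axis and paired receptors, 4 of 19 tested genes rose and 0 fell, at a median of 1.75. Its Cd300lf, with a call in 2 of 9 fits that each left out a library, was the least stable of the 4.

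Fes, a cytoplasmic tyrosine kinase of myeloid cells, stood at 19.6, 13.4 and 18.9 CPM against 83.0, 71.2 and 78.2 (2.16 ± 0.23, edgeR adjusted p = 0.00234). Both groups were narrow, and the call held without each library in turn. Fgr, a Src-family kinase, went from 22.8, 7.68 and 18.9 CPM to 99.3, 78.1 and 82.9 (2.40 ± 0.40). Dok3, an adaptor that damps immune receptor signals, rose by 2.18 ± 0.36, Themis2, a signalling scaffold, by 2.16 ± 0.35, and Nfam1, a receptor that signals through an ITAM motif, by 2.20 ± 0.38. Prkcd, a protein kinase C, had the smallest change of all risen genes, from 130.4, 127 and 108 CPM to 247, 219.9 and 232 (0.93 ± 0.16, edgeR adjusted p = 0.0242). Clec5a, an activating lectin receptor, was at 0.802, 0 and 0.156 CPM in the controls and at 9.65, 10 and 10.4 with anti-B7-H3. The calls of Prkcd and Nfam1 were each kept in 3 of 9 fits that left out a library, and that of Clec5a in 2. Those of Fgr and Dok3 were each kept in 5, and that of Themis2 in 6.

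Transcription factors that set myeloid identity were among the risen genes. Spi1, which encodes PU.1, the factor that both macrophages and granulocytes require, stood at 24.5, 29.7 and 28.6 CPM in the controls and at 117, 103 and 89.3 with anti-B7-H3. The groups stood well apart, and the change was 1.90 ± 0.25 (edgeR adjusted p = 0.00615). Cebpb, a C/EBP factor of inflammatory myeloid cells, went from 124, 91.4 and 135 CPM to 741, 464 and 424 (2.22 ± 0.27, edgeR adjusted p = 0.00383). Klf4, needed for monocytes and a subset of dendritic cells, rose from 3.16, 4.83 and 4.62 CPM to 21.9, 22.9 and 29.8 (2.57 ± 0.33). Irf5, a factor of inflammatory cytokine genes, rose by 1.25 ± 0.19, and Nfil3 by 1.11 ± 0.21. The call of Irf5 was lost when either anti-B7-H3 2 or 3 was left out, and that of Nfil3 was kept in only 2 of 9 fits that each left out a library.

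Receptors for the colony-stimulating factors, the growth factors of these lineages, followed. Csf2ra and Csf2rb, the subunits of the GM-CSF receptor, rose by 2.26 ± 0.43 and 1.74 ± 0.32, and Csf3r, the G-CSF receptor, went from 10.8, 7.80 and 2.65 CPM to 64.0, 49.0 and 112 (3.41 ± 0.52, edgeR adjusted p = 0.0142). The calls of Csf2ra and Csf2rb were kept in only 2 and 1 of 9 fits that each left out a library, and that of Csf3r in 8. Csf1r, the receptor of macrophage colony-stimulating factor, showed the reverse dependence. It stood at 36.7, 0 and 30.2 CPM in the controls and at 355, 190.3 and 241 with anti-B7-H3, and its difference of 3.55 ± 1.40 did not pass (edgeR adjusted p = 0.536). Without IgG control 2, in which it had 0 counts, the change was 2.98 ± 0.34 and passed (edgeR adjusted p = 0.00244).

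**Figure D2:**
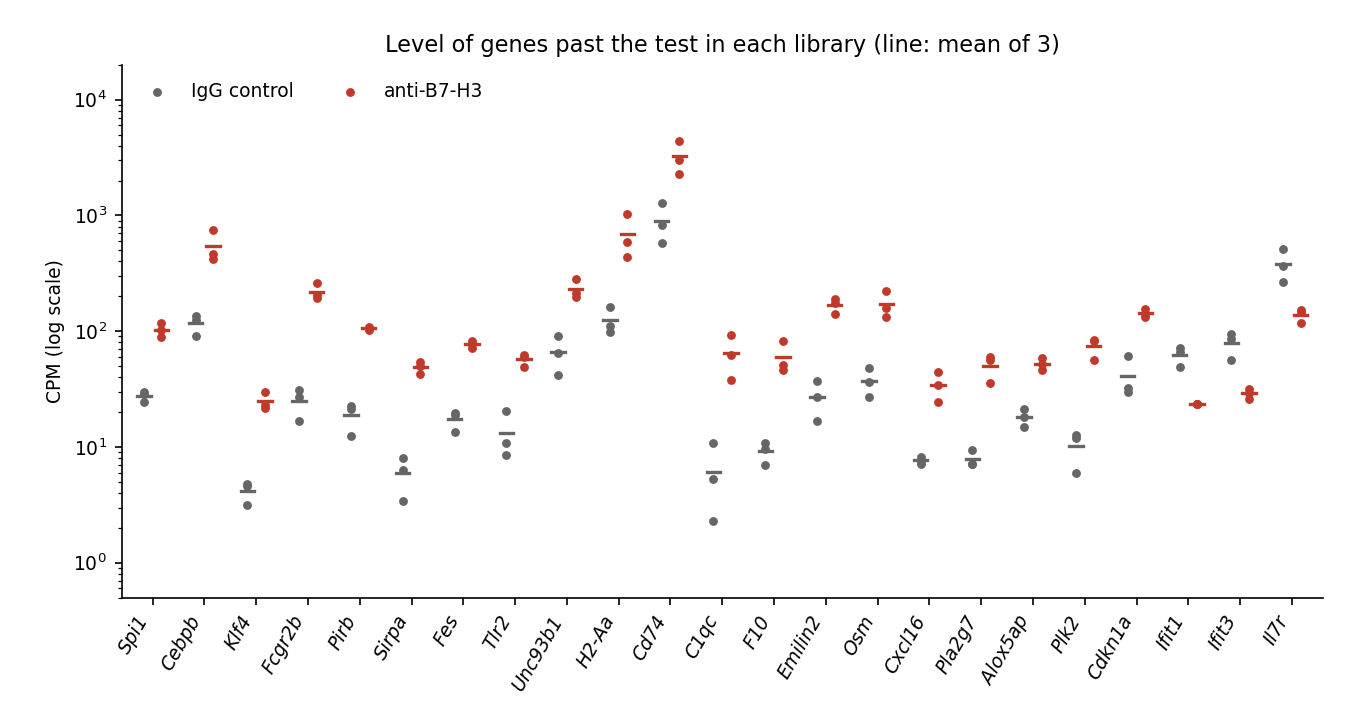
CPM of 23 genes past the test in each of the 6 libraries on a log axis, with grey points for IgG control, red points for anti-B7-H3 and a line at the mean of 3. The red points of the 20 risen genes lie above all grey points and those of Ifit1, Ifit3 and Il7r lie below.

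Of the calls with all 9 libraries, 20 of the 112 calls were lost without IgG control 2. Among the genes named here these were, by edgeR adjusted p without it, H2-DMa (0.0515), Napsa (0.0522), Csf3r (0.0531), Igkv12-89 (0.0538), Tlr2 (0.0547), Il7r (0.0586), Csf2rb (0.0617), Pim3 (0.0671), Ccl17 (0.0681), Jun (0.0879), Nfil3 (0.0897), Ifit1 (0.0995), Adam8 (0.102) and Mrc1 (0.112). Csf1r was 1 of 52 genes that passed without IgG control 2 and not with all 9 libraries. All 52 were higher with anti-B7-H3, 51 were above every control library, 26 had 0 counts in IgG control 2, and 40 also passed in DESeq2 on all 9 libraries. These counts follow in part from how the 52 were picked and lend them no support. Of all tested genes, 9.96% were above every control, and DESeq2 called 3.43% of its genes. The 52 included further receptors of macrophages and monocytes. Cd14, the lipopolysaccharide co-receptor, stood at 28.1, 3.03 and 30.2 CPM against 305, 295 and 209 (edgeR adjusted p = 0.0591 with the library and 0.000648 without it). Fcgr1, the high-affinity IgG receptor, went from 4.26, 0 and 2.91 CPM to 27.5, 20.2 and 27.0 (edgeR adjusted p = 0.289 and 0.00348). Clec7a, the beta-glucan receptor, went from 13.4, 1.73 and 13.5 CPM to 92.8, 75.0 and 81.0 (edgeR adjusted p = 0.0538 and 0.00164). C3ar1, the receptor of the complement fragment C3a, went from 2.81, 0 and 3.53 CPM to 38.4, 39.8 and 39.9 (edgeR adjusted p = 0.144 and 0.00114). Adgre1, which encodes the macrophage antigen F4/80, passed neither way: it was at 6.92, 0.0619 and 0.104 CPM against 44.5, 32.8 and 21.4, with low values in a pair of control libraries.

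**Figure D3:**
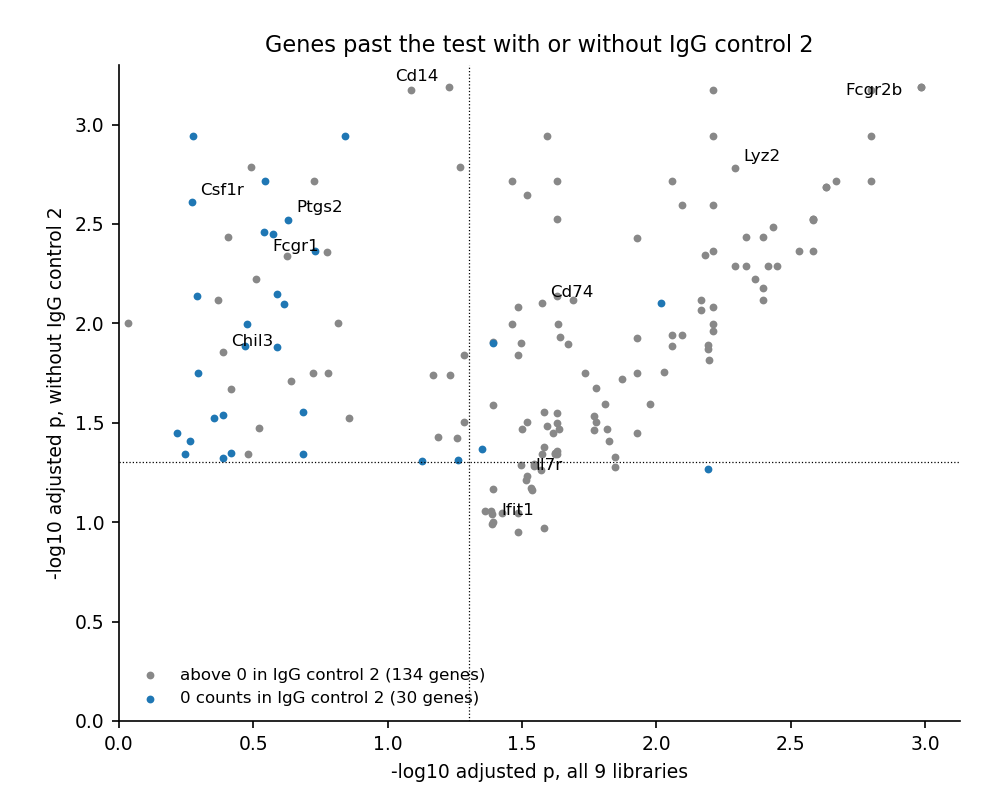
Minus log10 of the edgeR adjusted p with all 9 libraries (x axis) and without IgG control 2 (y axis) for the 164 genes past the test in either fit; dotted lines mark 0.05, and blue points are the 30 genes with 0 counts in IgG control 2. The 52 genes left of the vertical line passed only without that library, and the 20 below the horizontal line passed only with it.

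The macrophage marker list moved most among the lists of cell types with called genes. Of 19 tested markers, 8 rose, 0 fell and 18 were positive, at a median of 3.37 (2.96 without IgG control 2, where 10 rose). Among all tested genes, 52.0% were positive. The summed level of the list was 325, 181 and 350.2 CPM in the controls and 2804, 1830 and 1867 CPM with anti-B7-H3. Lists of cDC2 (a conventional dendritic cell), neutrophil and monocyte markers had 4 of 12, 4 of 14 and 2 of 14 members risen, at medians of 1.56, 1.96 and 1.88, and 0 fallen. The sums of each were above every control library. Without IgG control 2, 7 neutrophil and 5 monocyte markers rose, and without anti-B7-H3 2 or 3, 1 monocyte marker. Members of these lists overlap in myeloid cells, so the lists do not separate the cell types.

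Surface and granule genes of myeloid cells were also chosen for their place among the risen genes. Of these, Lyz2 and Mgl2 are members of the macrophage and cDC2 lists and were already counted there. Ms4a6d, a membrane protein of the MS4A family, stood at 19.6, 16.8 and 12.4 CPM in the controls and at 114, 90.9 and 83.2 with anti-B7-H3 (2.56 ± 0.24, edgeR adjusted p = 0.00159), and its call held without each library in turn. Lyz2, the lysozyme of macrophages and neutrophils, went from 166, 54.0 and 147 CPM to 1354, 1005 and 792 (3.10 ± 0.40, edgeR adjusted p = 0.00510). Mgl2, a galactose-binding lectin of dendritic cells and macrophages, went from 14.2, 23.3 and 14.9 CPM to 235, 111 and 225. The neighbour of Ms4a6d, Ms4a6c, rose less, from 29.2, 25 and 20.6 CPM to 65.5, 63.4 and 53.8 (1.29 ± 0.22), with its call kept in 3 of 9 fits that each left out a library. Dab2, an endocytic adaptor of macrophages, went from 4.76, 15.4 and 8.35 CPM to 60.4, 79.2 and 68.6 (2.87 ± 0.38, edgeR adjusted p = 0.00615). Igsf6, an immunoglobulin-family receptor of myeloid cells, went from 2.96, 2.41 and 1.76 CPM to 15.5, 14.1 and 12.2. Its call was likewise kept in 3 of 9 fits that each left out a library.

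Genes that sense or contain microbial nucleic acids and lipids were higher in part. Tlr2, the receptor of bacterial lipoproteins, went from 20.3, 8.60 and 10.9 CPM to 62.8, 48.9 and 60 (2.11 ± 0.38, edgeR adjusted p = 0.0269). Unc93b1, the chaperone that carries endosomal Toll-like receptors, went from 65.3, 41.7 and 90.8 CPM to 284, 215 and 198 (1.82 ± 0.31). These were the 2 of 19 tested genes of the Toll-like receptor list that rose; 0 fell and the median was 0.55. Without anti-B7-H3 1 or 2 the list's count was 0, and without anti-B7-H3 3, IgG control 3 or anti-PD1 2 it was 1. Ly86, which encodes the MD-1 partner of the Toll-like protein RP105, rose by 2.02 ± 0.36, with its call kept in 4 of 9 fits that each left out a library. Pld4, an endolysosomal exonuclease that degrades single-stranded nucleic acid, went from 16.6, 28.4 and 26.8 CPM to 167, 95.8 and 113 (2.39 ± 0.33, edgeR adjusted p = 0.00680). Cybb, the catalytic subunit of the phagocyte oxidase, which makes the oxidative burst, was at 29.0, 25.7 and 8.98 CPM against 78.0, 59.1 and 71.7, with an edgeR adjusted p of 0.0704.

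Transcripts of genes for antigen presentation by MHC class II were higher, while 0 class I genes passed the test. Of 15 tested class II genes, 7 rose, 0 fell and 15 were positive, at a median of 1.84. Leaving out anti-B7-H3 1 gave 3 risen genes, while 4 rose when anti-B7-H3 3 or either of IgG control 1 and 3 was left out. H2-Aa, the alpha chain of I-A, stood at 98.1, 112 and 162 CPM in the controls and at 1021, 439.7 and 594 with anti-B7-H3 (2.47 ± 0.37, edgeR adjusted p = 0.0106). H2-Eb1, the beta chain of I-E, went from 116, 210.3 and 149 CPM to 799, 398 and 568 (1.89 ± 0.32). H2-Ab1, the partner of H2-Aa, went from 255, 291 and 335 CPM to 2079, 1122 and 1385 (2.38 ± 0.29, edgeR adjusted p = 0.00401). H2-DMb1 went from 35.9, 45.9 and 42 CPM to 197, 161 and 175 (2.11 ± 0.21, edgeR adjusted p = 0.00215). H2-DMb2, like H2-DMb1 a beta chain of the peptide-loading molecule H2-DM, rose by 2.30 ± 0.36 and H2-DMa, its alpha chain, by 1.08 ± 0.20. Cd74, the invariant chain, went from 582, 1269 and 819 CPM to 4435, 2270 and 2983 (1.86 ± 0.33, edgeR adjusted p = 0.0266). In all 7, anti-B7-H3 1 was the highest treated library and anti-B7-H3 2 the lowest. H2-DMa lost its call in each of the 9 fits that left out a library, with an edgeR adjusted p of up to 0.109, and the call of Cd74 was kept in 3.

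The 6 H2 genes of this group lie together at chr17:34119541-34316674, and related H2 genes may share reads. The balance of the Cd74 forms hardly moved: the transcript of 648 coding bases took 82.8% ± 2.6 of its estimated counts in the controls and 80.6% ± 2.0 with anti-B7-H3 (SD, n = 3), which overlap. B cells express class II as well, and the B cell markers were highest in the same library. The B cell list summed to 1131, 614 and 471 CPM in anti-B7-H3 1, 2 and 3 against 326, 433 and 602 CPM in the controls; the part of B cells in the class II values was not tested. Of 20 tested genes of class I presentation, 0 passed, at a median of 0.01 and with overlapping sums.

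Cathepsins and other lysosomal proteins, which also process antigen, rose less. In the lysosome list 4 of 28 tested genes rose, 0 fell and 26 were positive, at a median of 0.42. Ctsh, a cathepsin with aminopeptidase activity, went from 32.7, 45.2 and 32.2 CPM to 184, 104 and 115 (1.87 ± 0.26, edgeR adjusted p = 0.00660), and its call held without each library in turn. The list's count was 1 without any 1 of the anti-B7-H3 libraries, anti-PD1 1 or anti-PD1 2, and 2 without IgG control 1 or anti-PD1 3. Ctsl, a cathepsin of antigen processing, went from 13.6, 5.20 and 15.7 CPM to 55.6, 45.9 and 39.3 (2.03 ± 0.38). Ctsc, the peptidase that activates granule proteases, went from 244, 234 and 184 CPM to 487, 411 and 477 (1.06 ± 0.19, edgeR adjusted p = 0.0263). Napsa, an aspartic protease of lysosomes, rose by 1.17 ± 0.21 and Plbd1, a lysosomal phospholipase-like protein, by 1.75 ± 0.30. The calls of Ctsl and Napsa were each kept in 2 of 9 fits that left out a library, that of Ctsc in 3 and that of Plbd1 in 5.

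Complement and coagulation genes, several of which macrophages make outside the liver, were higher. C5ar1, the receptor of the complement fragment C5a, went from 3.41, 3.53 and 7.78 CPM to 37.3, 39.7 and 59.6. The list of complement had 5 of 15 tested genes risen, 0 fallen and a median of 3.39. C1qc, a chain of the C1q recognition protein, stood at 2.31, 5.26 and 10.8 CPM in the controls and at 92.3, 38.1 and 62.6 with anti-B7-H3 (3.39 ± 0.53, edgeR adjusted p = 0.0143). Cfp, encoding properdin, which stabilises the alternative pathway, went from 19.9, 17.5 and 54.8 CPM to 167, 179 and 149 (2.42 ± 0.39). F10, coagulation factor X, went from 6.97, 10.9 and 9.55 CPM to 81.5, 46.5 and 51.4 (2.71 ± 0.34, edgeR adjusted p = 0.00463). Its neighbour F7, the factor that activates it, was at 0.551, 0.124 and 0.156 CPM against 17.2, 8.39 and 13.2, so its control values rest on few counts. These were the 2 of 19 tested coagulation genes that rose, and 0 fell.

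Of 15 tested matrix metalloproteinases and their inhibitors 3 rose and 0 fell, at a median of 2.71, and of 11 tested fibroblast and matrix genes 0 passed. Genes of matrix and protein processing were also chosen from the risen genes. Emilin2, an extracellular matrix glycoprotein, stood at 37.4, 16.8 and 26.9 CPM against 188, 175 and 140.1 (2.63 ± 0.32, edgeR adjusted p = 0.00403). Spint1, an inhibitor of serine proteases, was tight in both groups, at 6.77, 5.26 and 7.16 CPM against 38.1, 33.9 and 34.5 (2.47 ± 0.27, edgeR adjusted p = 0.00261). Tgm2, a protein cross-linking transglutaminase, went from 47.4, 9.66 and 45.0 CPM to 339, 461 and 269 (3.39 ± 0.55). Adam8, a surface metalloprotease of leukocytes already counted in the metalloproteinase list, rose by 1.23 ± 0.24. App, the amyloid precursor protein, rose by 2.43 ± 0.39 and Gsn, the actin-severing gelsolin, by 1.21 ± 0.21. Ccn1, a matrix-associated signalling protein, had 0 counts in the controls and 226 over the anti-B7-H3 libraries, at least 55.2-fold higher against a floor of 3 counts over the control group. The calls of Adam8 and Ccn1 were each kept in 1 of 9 fits that left out a library. Those of Tgm2 and Gsn were each kept in 4, and that of App in 7.

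Some chemokines of both families rose, and so did Osm. Osm, the cytokine oncostatin M, stood at 36.7, 27.2 and 48.5 CPM in the controls and at 132, 223 and 159.9 with anti-B7-H3 (2.19 ± 0.27, edgeR adjusted p = 0.00430). Cxcl16, a membrane-bound chemokine that attracts T and NKT cells, went from 7.62, 7.18 and 8.20 CPM to 44.7, 24.3 and 34.4 (2.17 ± 0.32, edgeR adjusted p = 0.00936). Cxcl2, a neutrophil-attracting chemokine, went from 7.97, 4.58 and 10.6 CPM to 57.0, 68.9 and 63.5 (3.03 ± 0.29, edgeR adjusted p = 0.00159). Cxcl2 and Cxcl16 made 2 of 10 tested CXC and other chemokines that rose, at a median of 2.32. Ccl3, an inflammatory chemokine of macrophages, went from 21.6, 11.6 and 16.3 CPM to 39.3, 54.0 and 57.6 (1.61 ± 0.28). Ccl17, which dendritic cells make to attract T cells bearing CCR4, went from 15.3, 30.6 and 40.6 CPM to 129, 80.8 and 95.4 (1.82 ± 0.35, edgeR adjusted p = 0.0405). Of 15 tested CC chemokines 5 rose, 0 fell and 11 were positive, at a median of 1.61. The count was 2 without anti-B7-H3 2, anti-B7-H3 3 or anti-PD1 2, and 3 without anti-B7-H3 1, IgG control 1, anti-PD1 1 or anti-PD1 3. The interleukin 1 family and inflammasome had 2 of 20 tested genes risen, 0 fallen and 10 positive, at a median of 0.07. Vegfa, the angiogenic growth factor, went from 17.5, 16.3 and 14.4 CPM to 52.1, 60.3 and 69.5. Ccrl2, a non-signalling receptor that presents chemerin, rose by 1.71 ± 0.31. The calls of Ccrl2 and Ccl17 were each kept in 1 of 9 fits that left out a library, and that of Ccl3 in 5.

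Enzymes of lipid mediators and lipid handling were part of the same set. Pla2g7, the phospholipase that degrades platelet-activating factor, stood at 9.42, 7.12 and 7.16 CPM against 59.5, 35.7 and 55.9 (2.67 ± 0.33, edgeR adjusted p = 0.00403). Cyp4f18, which inactivates leukotriene B4, went from 12.8, 6.81 and 15.4 CPM to 104, 65.2 and 71.6 (2.78 ± 0.40, edgeR adjusted p = 0.00874). Alox5ap, which presents arachidonate to 5-lipoxygenase, went from 18.2, 15.0 and 21.2 CPM to 51.9, 58.5 and 46.2 (1.52 ± 0.26). Pla2g7 and Alox5ap were the 2 of 17 tested genes of the eicosanoid list that rose, 0 fell and the median was 1.52 (1 rose without any 1 of the anti-B7-H3 libraries or anti-PD1 1). Lpl, lipoprotein lipase, rose by 1.72 ± 0.33 and G0s2, an inhibitor of triglyceride lipolysis, by 2.77 ± 0.37. Mgst1, a microsomal glutathione transferase, rose by 2.61 ± 0.43 and Aldh2, the mitochondrial aldehyde dehydrogenase, by 1.49 ± 0.27. The call of G0s2 held without each library in turn. That of Lpl was kept in 1 of 9 such fits, of Aldh2 in 3, of Alox5ap in 4 and of Mgst1 in 5. Ptgs2, the inducible cyclooxygenase, was at 5.97, 0 and 4.31 CPM against 34.5, 60.6 and 97.9 and passed only without IgG control 2 (edgeR adjusted p = 0.234 with it and 0.00304 without it).

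Genes induced within minutes of cell stimulation were higher too. Atf3, a stress-induced factor of that family, had among the smallest p-values, from 15.2, 8.17 and 13.5 CPM to 116, 92.1 and 116 (3.13 ± 0.26, edgeR adjusted p = 0.00104). Fos, the partner of Jun, went from 508, 511 and 705 CPM to 1644, 1534 and 1535 (1.45 ± 0.20, edgeR adjusted p = 0.00641). Of 15 tested AP-1 factors 4 rose and 0 fell, at a median of 1.15, and of 23 factors of the NR4A, EGR, KLF and related families 5 rose and 0 fell, at a median of 0.77. Jun, a core AP-1 subunit, went from 549.9, 489 and 794 CPM to 1553, 1292 and 1216 (1.15 ± 0.22, edgeR adjusted p = 0.0412). Zfp36, which encodes the mRNA-destabilising tristetraprolin, went from 483, 408 and 589.5 CPM to 1027, 1338 and 1318 (1.31 ± 0.21). The call of Jun was kept in 1 of 9 fits that each left out a library, and that of Zfp36 in 7. The MAPK phosphatases, which are induced as feedback on the same signals, had 0 of 16 tested genes past the test although all 16 were positive, at a median of 0.95; without IgG control 2, 1 passed. Dusp1, the phosphatase with the highest level among them, was at 739, 932 and 622 CPM against 1266, 1676 and 1648 (1.00 ± 0.21, edgeR adjusted p = 0.0652, and 0.0375 without IgG control 2).

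Single kinases and a cell-cycle inhibitor were also among the risen genes, while the lists on stress and the cell cycle had 0 past the test. Plk2, a polo-like kinase induced by stress, stood at 12.8, 12 and 5.97 CPM against 83.4, 56.6 and 81.5 (2.85 ± 0.31, edgeR adjusted p = 0.00261). Cdkn1a, the cell-cycle inhibitor p21, went from 32.3, 29.8 and 61.6 CPM to 155, 140.4 and 132 (1.79 ± 0.27, edgeR adjusted p = 0.0118). Sgk1, a stress-induced kinase, rose by 1.44 ± 0.25 and Pim3, a survival kinase, by 1.24 ± 0.23, and their calls were kept in 3 and 1 of 9 fits that each left out a library. Heat-shock chaperones had 0 of 16 tested genes past the test at a median of 0.30, the unfolded protein and integrated stress response 0 of 20 at a median of 0.35, and ribosomal protein genes 0 of 24 at a median of 0.00. The heat-shock sums went from 17505, 18002 and 27919 CPM in the controls to 33717, 34080 and 31520 with anti-B7-H3. Those of the unfolded protein list went from 4086, 4232 and 3572 CPM to 4552, 5178 and 4926. Both lay above every control, and DESeq2 called 2 and 3 of their genes higher. Among 25 tested genes of the cell cycle and replication 0 passed, at a median of -0.00.

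**Figure D4:**
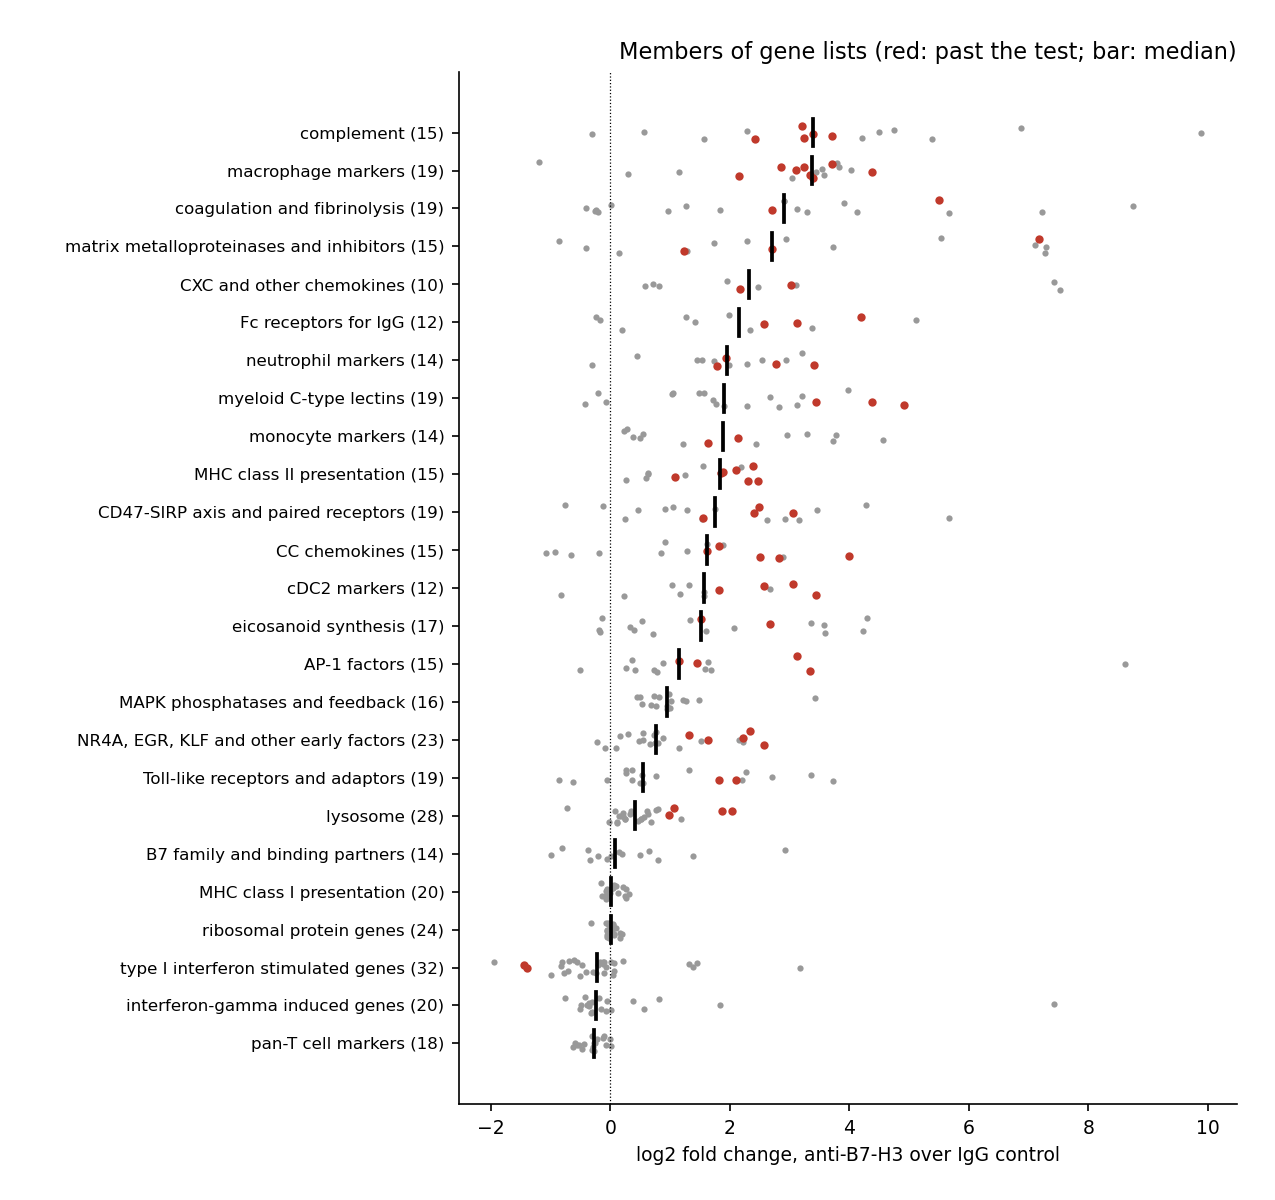
Log2 fold changes, anti-B7-H3 over IgG control, of the tested members of 25 gene lists (number tested in brackets); red points passed the edgeR test, grey points did not, and the bar is the median of the list. The medians shown run from -0.28 for pan-T cell markers to 3.39 for complement. Of 58 lists in all, some not shown had lower medians. These were regulatory T cell genes (-0.58), exhausted T cell receptors (-0.31) and erythroid and platelet genes (-4.04).

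The genes that fell were 3. Il7r, the interleukin 7 receptor of resting and memory T cells, stood at 367, 509 and 264 CPM in the controls and at 152, 118 and 147 with anti-B7-H3 (-1.45 ± 0.27, edgeR adjusted p = 0.0302). Ifit3, an antiviral protein induced by type I interferon, went from 85.6, 56.8 and 94.6 CPM to 29.4, 25.9 and 31.9 (-1.44 ± 0.25, edgeR adjusted p = 0.0235). Its neighbour Ifit1, which binds viral RNA, went from 65.5, 71.1 and 49.5 CPM to 23.4, 23.5 and 23.6 (-1.40 ± 0.27, edgeR adjusted p = 0.0407). The treated libraries were closer together than the controls for each of the 3. None of these calls was kept without anti-B7-H3 1, 2 or 3, with edgeR adjusted p-values of 0.189 for Il7r, 0.141 for Ifit3 and 0.214 for Ifit1 without anti-B7-H3 2, while each kept its direction.

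Of the other genes in both interferon lists, 0 passed the test by edgeR. In the list of type I interferon-stimulated genes 0 of 32 tested genes rose and 2 fell, at a median of -0.22 with 9 positive. Ifit3b, a near copy of Ifit3 with which reads may be shared, stood at 17.4, 19.7 and 15.6 CPM against 2.97, 5.62 and 5.06 (-1.94 ± 0.43, edgeR adjusted p = 0.0839). Ifit2 was likewise below every control, at 27.0, 28.0 and 30.6 CPM against 13.7, 12.8 and 16.3 (edgeR adjusted p = 0.409). The summed level of the list was 3191, 3447 and 3804 CPM in the controls and 2921, 2902 and 3061 CPM with anti-B7-H3. Of 20 tested genes induced by interferon gamma 0 passed, at a median of -0.25, and their sums overlapped.

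The study's design asked for the make-up of the infiltrate by cell class, and the lymphoid lists did not separate past the test. Of 18 tested pan-T markers, 0 passed and 1 was positive, at a median of -0.28. Cd3e, a chain of the T cell receptor complex, overlapped at 545, 797 and 885 CPM against 679, 579.7 and 537. The CD8 and cytotoxic list had 0 of 14 past the test at a median of 0.34, and its sums overlapped. Regulatory T cell genes had 0 of 15 past the test with a median of -0.58 (-0.25 when IgG control 2 was left out). Their sums lay below every control, at 4122, 5984 and 3914 CPM in the controls against 1909, 3753 and 3710 with anti-B7-H3. Foxp3, their defining factor, was at 357, 460.0 and 269 CPM against 58.8, 243 and 243, below every control (-0.99 ± 0.48, edgeR adjusted p = 0.605). Itgae, an integrin of tissue-resident T cells and some dendritic cells, was also below every control, at 351, 331 and 324 CPM against 90.0, 197 and 191 (-1.07 ± 0.27, edgeR adjusted p = 0.158). In the list of helper and memory T cell genes 1 of 15 fell, Il7r.

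NK, B and plasma cell lists had positive medians with 0 genes past the test. The 16 tested NK markers had a median of 0.77 (0.38 when IgG control 2 was left out), and 15 were positive. Their sums lay above every control, if narrowly, at 2328, 673 and 2075 CPM in the controls against 2343, 3073 and 3039 with anti-B7-H3. The 17 tested B cell markers had a median of 1.88 that became 0.53 without anti-B7-H3 1, in which Cd79a, a chain of the B cell receptor, stood at 222 CPM against 58.3 and 18 in its fellow libraries and 7.82, 11.7 and 47.8 in the controls. The 15 tested plasma cell markers were all positive, at a median of 1.01, and their sums of 11795, 12922 and 16264 CPM lay above the 7911, 9166 and 3507 CPM of the controls, with 0 past the test and 3 called by DESeq2. Among the called genes, the highest fitted change was that of an immunoglobulin segment: Igkv12-89, a kappa variable segment, had 2 counts over the controls and 6542 over the anti-B7-H3 libraries. The ratio of its CPM was 2395, with a 95% counting interval (exact) of 663 to 19779 that covers counting error only. Its call was lost without each of the 3 control libraries in turn (edgeR adjusted p up to 0.0621). Related segments may share reads. Mast cell and basophil markers differed widely within the treated group, at 285, 4324 and 1635 CPM with anti-B7-H3 against 1361, 728 and 1229 CPM in the controls, and 0 of 13 passed.

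Some of the called genes lay side by side in the genome. Counting runs of called genes with gaps of at most 200 kb, 29 of the 112 fell into 11 runs, a share that was not compared with that of all tested genes. The runs comprised the H2 and Fc receptor genes above, Ccl9, Ccl6 and Ccl3 (chr11:83572919-83649355), C1qb, C1qc and C1qa (chr4:136880129-136898803), F7 and F10 (chr8:13026034-13056676), Mmp13 and Mmp12 (chr9:7272514-7369499), S100a8 and S100a9 (chr3:90668978-90695721), Ms4a6c and Ms4a6d, Cd300c2 and Cd300lf, Themis2 and Fgr, and Ifit3 and Ifit1. Most of these are families of related genes, whose reads may be shared in part.

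Set directly against anti-PD1 in the same fit, anti-B7-H3 differed in 0 of 13174 genes by edgeR, with a smallest adjusted p of 1.00, and 424 genes (3.22%) had an unadjusted p under 0.05. DESeq2 called 18 of 12775 genes (0.141%), 6 higher and 12 lower with anti-B7-H3. Immunoglobulin genes made up 7 of the 18, with 4 higher and 3 lower. The 5 genes with the smallest p in edgeR are given here, with Ighv10-3, a heavy-chain variable segment that was higher and had the smallest DESeq2 adjusted p (3.18e-07). Its DESeq2 log2 difference of 26.08 ± 3.91 was the largest of the 18 and too large to be read as a fold change. edgeR did not call it. Cxcl2, the neutrophil chemokine with the NF-kB form shown above, stood at 57.0, 68.9 and 63.5 CPM with anti-B7-H3 and at 169.7, 175 and 212 with anti-PD1, a difference of -1.55 ± 0.28 in edgeR (DESeq2 adjusted p = 0.000273). S100a9, a subunit of calprotectin in neutrophils, stood at 123, 84.4 and 142 CPM against 253, 365 and 274 (-1.35 ± 0.25, DESeq2 adjusted p = 0.00414). Mt1, a metallothionein, stood at 65.5, 83.0 and 52.9 CPM against 134, 167 and 141 and Ifrd1, a transcriptional co-regulator, at 184, 260.2 and 336 CPM against 484, 468 and 647. Zfp109, a zinc finger gene, went the other way, at 0.890, 4.18 and 3.88 CPM against 0, 0.0370 and 0. Among the 112 genes called against IgG, 17 had an unadjusted p under 0.05 that put them below anti-PD1 and 0 above it. Their median difference was -0.21, against 0.04 over all tested genes. The absence of calls by edgeR does not show that the antibodies act alike.

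How far single calls rest on single libraries was counted for all 112. All 112 were called by DESeq2, which called 3.43% of its tested genes; 49 were called in each of the 9 edgeR fits that left out a library, and 41 in a fit of the 6 libraries alone. Of the 112, 59, 60 and 57 were kept without anti-B7-H3 1, 2 and 3, 73 without anti-PD1 2 and 92 without IgG control 2, while those fits made 64, 60, 59, 73 and 144 calls in all. Fcgr2b, Ms4a6d, Fes, Pirb, Spi1, Cebpb, Plk2, Spint1, Emilin2, Osm and Pla2g7 were among the 49. A gene named above without a count of such fits is not thereby one of the 49.

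**Figure D5:**
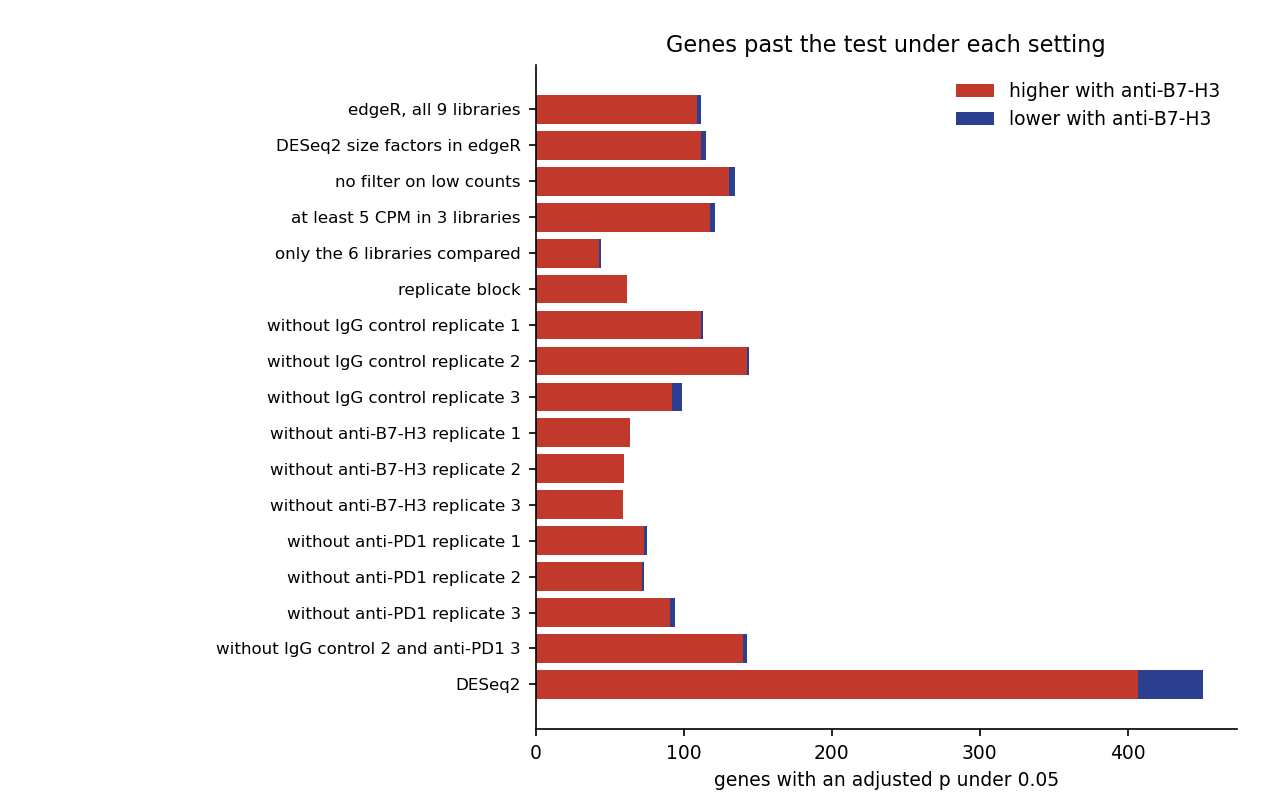
Number of genes with an adjusted p under 0.05, higher (red) and lower (blue) with anti-B7-H3, in the edgeR fit of all 9 libraries and under each other setting. The counts run from 44 with the 6 libraries alone to 451 by DESeq2, and higher genes are the larger part of every bar.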

How the data were processed

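RNA of CD45-sorted tumour cells was amplified with SMART-Seq v4 and made into Nextera XT libraries, per the labels' protocols, a scheme that does not mark strand. The deposited files give estimated counts and TPM per transcript for each library, per the file headers; TPM entered no test. The submitters' processing notes name FastQC 0.11.8 and the build GRCm38. The quantifier is not given in the sources used here. Of 58083 transcripts per file, 57409 matched GENCODE M21 and 674 did not. Their estimated counts were summed over 22136 genes and rounded. All 9 libraries were fitted with edgeR 4.0.16 in R 4.3.3 (TMM, filterByExpr, robust quasi-likelihood test, no covariate, Benjamini-Hochberg over 13174 genes, threshold 0.05). Log2 fold changes are given ± SE. Alternatives were DESeq2 1.42.0, other filters and scalings, the 6 libraries alone, a replicate block and leaving out each library.

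Promoter stretches came from RefSeq, GRCm38.p6. The members, gene lists and tests were chosen with earlier results of these data known. Genes were named by a rule: the 25 with the smallest p among called genes whose groups did not overlap and whose higher group averaged 5 CPM or more, every fallen gene, the B7 family and up to 4 members per list with the smallest p. For anti-PD1 the 5 with the smallest p were named. All other named genes, Spi1, Prkcd, Cd74, Igkv12-89 and the genes that passed only without IgG control 2 among them, were chosen after their values were seen. On simulated data of 12771 genes, edgeR recovered 6%, 64%, 80% and 92% of 50 genes changed 2, 4, 8 and 16-fold, with 4 false calls. The changed genes averaged at least 5 CPM, and no simulated library stood apart as IgG control 2 did. The rates therefore do not describe genes of lower level or such a control group. Some results are not reported here.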

Additional observations from a re-analysis of the deposited data

How the results depend on the processing

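Against the 112 calls (109 higher, 3 lower), the 6 libraries alone gave 44 (43 and 1), the replicate block 62 (62 and 0) and DESeq2 451 (407 and 44, 3.43% of its genes). DESeq2 called 18 genes against anti-PD1, where edgeR called 0. Leaving out each library gave 59 to 144 calls, 59 to 143 higher and 0 to 7 lower, and 0 to 1 against anti-PD1. The total moved by over 1.5 times without anti-B7-H3 1, 2 or 3 (64, 60 and 59) and without anti-PD1 2 (73). The lower calls were 7 without IgG control 3 and 1 without IgG control 1, IgG control 2 or anti-PD1 2. The cause was not tested. DESeq2 size factors gave 115 calls, no filter on low counts 135, a minimum of 5 CPM in 3 libraries 121, and leaving out both libraries that stood apart, chosen after seeing the data, 143.

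The replicate numbers did not pair the samples: same-numbered deviations of the compared groups correlated between -0.12 and 0.002. Of the 112 calls, 61 were kept with the replicate block. Over all settings, the called genes kept their side of the threshold in 1274 of 1791 results and reversed in 0, and list medians moved by more than their spread in 46 of 927. With the minimum of 5 CPM, no melanoma marker was left to give a median. The simulated recovery of 6% at 2-fold, for genes averaging at least 5 CPM, limits what could be called among small changes.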
